A study of Homo sapiens with 6 samples.

Results

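The 9 genes described here make, use or recycle S-adenosylmethionine (SAM) and S-adenosylhomocysteine (SAH), or are close relatives of the enzymes that do: AHCY, AHCYL1, AHCYL2, MAT2A, MAT2B, MTR, MTRR, MTAP and AMD1. They were chosen by gene name, with earlier results of these data known, and all 9 were found among the 53712 gene names of the count table. RNA was sequenced from H9, an established human embryonic stem cell line labelled as naive and grown in RSeT, a commercial medium for naive-type pluripotent cells. Starting 24 h after passage, every culture was given 10 nM DZNep and 5 nM TSA, which is trichostatin A and blocks histone deacetylases. On top of that background, 3 libraries came from cells given 2.5 µM UNC1999, which blocks EZH2 and EZH1, the enzymes that methylate histone H3 for Polycomb repression, and 3 from cells given 2.5 µM UNC2400, its close analog of low activity and the control compound, for 48 h. DZNep inhibits the AHCY enzyme and was present in both groups, so the comparison is of UNC1999 with UNC2400 and holds no measure of DZNep itself. The counts measure RNA, not enzyme activity or the amounts of SAM and SAH.

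SAM is the methyl donor of nearly all cellular methyltransferases, EZH2 included, and each methyl transfer leaves SAH, which inhibits those enzymes until AHCY splits it into adenosine and homocysteine. Homocysteine is remethylated to methionine by MTR, with a methyl group from folate and a cobalamin cofactor that MTRR keeps reduced, and the MAT2A and MAT2B complex turns methionine back into SAM. A side branch runs through AMD1, which decarboxylates SAM for polyamine synthesis, and MTAP, which recovers the by-product so that its methylthio group can return to methionine. Pluripotent stem cells are known for a high demand for methionine and SAM.

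UNC1999 libraries had less RNA of 6 of the 9 genes: AHCYL2, MTR, AHCYL1, MTAP, MTRR and MAT2A. AHCYL2 and MTR fell furthest, to 58.8% and 65.5% of the UNC2400 level. The other 4 lay between 79.9% and 90.3%. AHCY, AMD1 and MAT2B did not pass the test, and no gene of the 9 rose. Calls are edgeR quasi-likelihood tests with Benjamini-Hochberg adjustment over 17596 tested genes and a threshold of 0.05. By the same rule 25.9% of all tested genes were lower in UNC1999 and 26.8% were higher, 52.7% in all, so a call here is a frequent event. The median log2 fold change (UNC1999 minus UNC2400) of the 9 genes was -0.23, beside 0.02 over all tested genes. Taken library by library, 8 of the 9 genes were lower in every UNC1999 library than in any UNC2400 library, where 29.7% of all tested genes had that pattern, and MAT2B overlapped. Over all tested genes 30.9% were higher without overlap, which made 60.6% without overlap in either direction.

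Library totals ran from 29699441 to 42345448 counts. The 9 genes had 634 to 16990 counts in a library, and all of them passed the low-count filter, which was applied once over the 6 libraries. Levels are given as CPM, the usual depth-scaled unit of counts, with TMM factors. EZH2, the main target of UNC1999, which blocks the protein and not its gene, was at 128 ± 2.46 CPM in UNC2400 and 102 ± 5.46 CPM in UNC1999 (SD, n = 3). On the first principal component of all tested genes, which held 67.8% of the variance, UNC1999 replicate 1 lay at 20.1 and the other UNC1999 libraries at 39.3 and 41.4, with UNC2400 between -35.2 and -31.6. UNC1999 replicate 1, the UNC1999 library nearest to UNC2400 on that component, was also the highest UNC1999 library for 9 of the 9 genes. The share of all tested genes with that pattern was not counted, so it is not shown to be particular to the 9. All 10 pluripotency markers were expressed, with a summed level of 9661 to 9812 CPM in UNC2400 and 7666 to 8658 CPM in UNC1999; 6 of them were called lower. Of 10 naive markers 8 were tested, with 6 called higher and 2 lower, and the summed level was 224 to 235 CPM in UNC2400 and 233 to 262 CPM in UNC1999. Most of that sum was DPPA5, called lower, at 140 CPM in UNC2400 and 116 CPM in UNC1999. The other gene called lower, SUSD2, went from 12.3 to 9.27 CPM. Those called higher included KLF4 (27.2 to 41.7 CPM), ALPPL2 (8.53 to 23.2 CPM) and DNMT3L (4.17 to 13.8 CPM). KLF17, a defining naive factor, stayed below the filter at 0.148 CPM in UNC2400 and 0.394 CPM in UNC1999. The 9 fibroblast or feeder markers summed to 312 to 342 CPM in UNC2400 and 209 to 221 CPM in UNC1999. Of the 6 tested, 5 were called lower and 1 higher. Most of the sum was COL1A2, THY1, COL1A1 and PDGFRA, at 137, 88.3, 57.2 and 40.1 CPM in UNC2400. In UNC1999 they were at 85.5, 68.3, 33.8 and 25.6 CPM. LUM was at 0 in every UNC2400 library, and DCN was near 0. COL3A1 was at 0.128 CPM in UNC2400 and 0.136 CPM in UNC1999, below the filter. Neuroectoderm markers summed to 253 to 270 and 427 to 462 CPM, with 2 called higher, 1 lower and 2 not called. Most of that sum was NES, at 232 and 430 CPM, while DCX went from 24.8 to 15.8 CPM and SOX1 was near 0. The mesoderm and endoderm list was low, at 6.39 to 8.68 CPM in UNC2400 and 8.76 to 11.5 CPM in UNC1999. Of its 4 tested genes 2 were called higher and 0 lower. The trophoblast list was at 3.02 to 3.5 and 2.87 to 3.39 CPM, with 0 of 2 tested genes called. The part of these shifts in the results below was not tested. In bulk RNA, fewer cells of a type and less RNA per cell cannot be told apart.

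**Figure D1:**
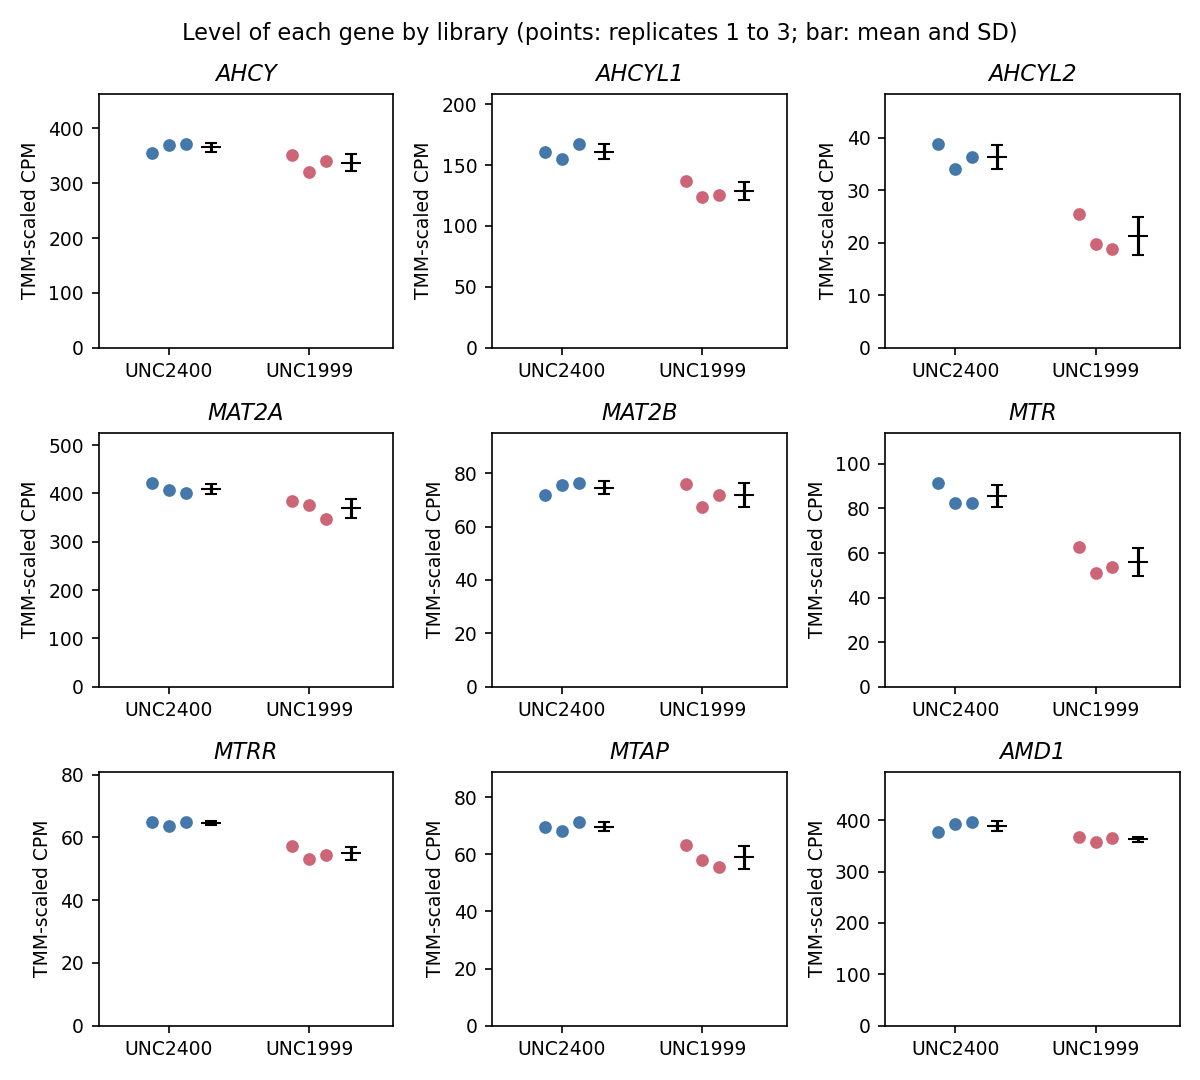
Level of each of the 9 genes in TMM-scaled CPM (vertical axis, from 0, a separate scale for each gene) in the 3 UNC2400 and 3 UNC1999 libraries, with replicates 1 to 3 from left to right as points and the mean and SD as a bar. AHCYL2 and MTR show the widest gap between groups, MAT2B overlaps, and the leftmost UNC1999 point is the highest of its group in every panel.

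AHCY, the only enzyme known to split SAH and the target of DZNep, was at 355, 370 and 371 CPM in UNC2400 replicates 1 to 3. In UNC1999 it was at 352, 321 and 340 CPM. The groups did not overlap, but UNC1999 replicate 1 lay just under the lowest UNC2400 library. The means were 365 ± 9.24 and 338 ± 15.6 CPM (SD, n = 3), a log2 fold change of -0.11 ± 0.05 (SE) that did not pass the edgeR test (adjusted p = 0.0841). The 95% interval of the UNC1999 level ran from 85.5% to 99.9% of UNC2400. Without UNC1999 replicate 1 the change was -0.17 and passed (adjusted p = 0.00958). GENCODE lists 6 processed pseudogenes named after AHCY and an overlapping gene on the same strand, and the sources used here do not give how multiply matching reads were counted.

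The relatives AHCYL1 and AHCYL2 resemble AHCY in sequence but are not known to split SAH. AHCYL1, also called IRBIT, binds the inositol trisphosphate receptor and ion transporters, and AHCYL2 is its long-form relative. AHCYL1 was at 161, 155 and 167 CPM in UNC2400 and at 137, 124 and 125 CPM in UNC1999. Every UNC1999 library lay below every UNC2400 library, and AHCYL1 fell by 0.32 ± 0.05 on the log2 scale (SE, edgeR adjusted p = 9.33e-05). AHCYL2 was at 38.7, 34.1 and 36.2 CPM in UNC2400 and at 25.4, 19.8 and 18.7 CPM in UNC1999. The gap between the groups was wider than the spread within either, although UNC1999 replicate 1 stood above the other UNC1999 libraries. AHCYL2 fell by 0.77 ± 0.09 (SE, edgeR adjusted p = 3.06e-06), with a 95% interval of -0.96 to -0.57. Leaving out 1 library at a time moved it between -0.93 and -0.70.

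Within each library, the counts of the 3 relatives were set against each other, which removes the scaling. The AHCY to AHCYL1 ratio was 2.2, 2.38 and 2.23 in UNC2400 and 2.56, 2.59 and 2.73 in UNC1999, higher in every UNC1999 library. The AHCYL1 to AHCYL2 ratio was 4.15, 4.56 and 4.61 in UNC2400 and 5.4, 6.25 and 6.67 in UNC1999, again without overlap. On the log2 scale the differences were 0.21 ± 0.04 and 0.46 ± 0.10 (SE). In a two-sided exact permutation test each had p = 0.1, the smallest that 3 libraries against 3 allow, and 0.15 after Benjamini-Hochberg adjustment over 6 ratios. No such test here can pass 0.05. With offsets for gene length and GC content, which are described further on, the 2 differences between fold changes were 0.22 and 0.15, so the second was smaller than in the raw ratios.

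MAT2A is the catalytic subunit of the SAM synthetase of most tissues other than adult liver. It was at 421, 407 and 400 CPM in UNC2400 and at 384, 377 and 347 CPM in UNC1999. The groups did not overlap, with UNC1999 replicate 3 the lowest library. MAT2A fell by 0.15 ± 0.05 on the log2 scale (SE, edgeR adjusted p = 0.0309), to 90.3% of the UNC2400 level. The call was lost without UNC2400 replicate 1, 2 or 3 (adjusted p = 0.11, 0.077 and 0.0607) and without UNC1999 replicate 3 (adjusted p = 0.157). MAT2B, the regulatory subunit, was at 71.8, 75.7 and 76.2 CPM in UNC2400 and at 76.1, 67.2 and 72 CPM in UNC1999. The groups overlapped, and UNC1999 replicate 1 was as high as the upper UNC2400 libraries. The change in MAT2B was -0.06 ± 0.06 (SE, edgeR adjusted p = 0.421), and its interval allowed 88.8% to 104% of the UNC2400 level.

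The MAT2A to MAT2B ratio of counts was 5.86, 5.38 and 5.25 in UNC2400 and 5.04, 5.62 and 4.82 in UNC1999, with the groups overlapping. Its log2 difference was -0.09 ± 0.08 (SE; two-sided exact permutation p = 0.4, 0.48 after adjustment over the 6 ratios). The MAT2A to AHCY ratio, between SAM synthesis and SAH removal, was 1.19, 1.1 and 1.08 in UNC2400 and 1.09, 1.18 and 1.02 in UNC1999. It overlapped as well, with a log2 difference of -0.04 ± 0.07 (SE; exact permutation p = 0.7, adjusted 0.7). Neither ratio differed beyond the spread between libraries. With the length and GC offsets the same differences were -0.22 for MAT2A against MAT2B and -0.28 for MAT2A against AHCY, without a test of their own.

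MTR, methionine synthase, was at 91.3, 82.6 and 82.6 CPM in UNC2400 and at 62.9, 51.2 and 53.8 CPM in UNC1999. Replicate 1 was the highest library of both groups, and the lowest UNC2400 library stood well above the highest UNC1999 one. MTR fell by 0.61 ± 0.07 on the log2 scale (SE, edgeR adjusted p = 1.53e-06), with a 95% interval of -0.75 to -0.47 and a range of -0.72 to -0.56 when each library was left out in turn. MTRR, its reductase, was at 64.8, 63.7 and 64.8 CPM in UNC2400 and at 57.2, 53.2 and 54.4 CPM in UNC1999. The UNC2400 libraries lay close together and all above UNC1999, and MTRR fell by 0.23 ± 0.05 (SE, edgeR adjusted p = 0.00105). Exons of MTRR overlap FASTKD3 and C5orf49, and exons of MAT2A overlap GGCX, all on the opposite strand in GENCODE. The libraries keep strand, but the sources used here do not give the strand setting of the counting, so reads of these pairs cannot be told apart.

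The MTR to MTRR ratio of counts was 1.41, 1.3 and 1.28 in UNC2400. In UNC1999 it was 1.1, 0.964 and 0.99, below every UNC2400 library. The log2 difference was -0.38 ± 0.07 (SE; two-sided exact permutation p = 0.1, the smallest possible, and 0.15 after adjustment). The count of the synthase relative to its reductase was thus lower in each UNC1999 library. MTR spans 108.7 kb and MTRR 54.8 kb, and with the length and GC offsets the difference between their fold changes was -0.14.

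MTAP, the phosphorylase that recovers methylthioadenosine, was at 69.6, 68.1 and 71.2 CPM in UNC2400 and at 63.4, 58 and 55.5 CPM in UNC1999. No UNC1999 library reached the UNC2400 range, and MTAP fell by 0.24 ± 0.06 on the log2 scale (SE, edgeR adjusted p = 0.00169). That call was lost when gene length and GC content were entered as offsets, where MTAP was at 0.04 (adjusted p = 0.452). AMD1 was at 377, 393 and 396 CPM in UNC2400 and at 367, 357 and 365 CPM in UNC1999. The groups were close but did not overlap, and the change of -0.10 ± 0.05 (SE) did not pass (edgeR adjusted p = 0.111), with an interval of 86.8% to 101% of UNC2400. Without UNC1999 replicate 1 AMD1 was at -0.13 and passed narrowly (edgeR adjusted p = 0.0426), which brought the genes called lower from 6 to 8. The MTAP to AMD1 ratio was 0.185, 0.174 and 0.18 in UNC2400 and 0.173, 0.162 and 0.152 in UNC1999, so the groups all but touched. Its log2 difference was -0.14 ± 0.06 (SE; two-sided exact permutation p = 0.1, adjusted 0.15), and it turned to 0.27 with the length and GC offsets. GENCODE lists 4 processed pseudogenes named after AMD1 and 2 after MTAP, and exons of MTAP overlap another coding gene, AL359922.1, on the same strand.

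**Figure D2:**
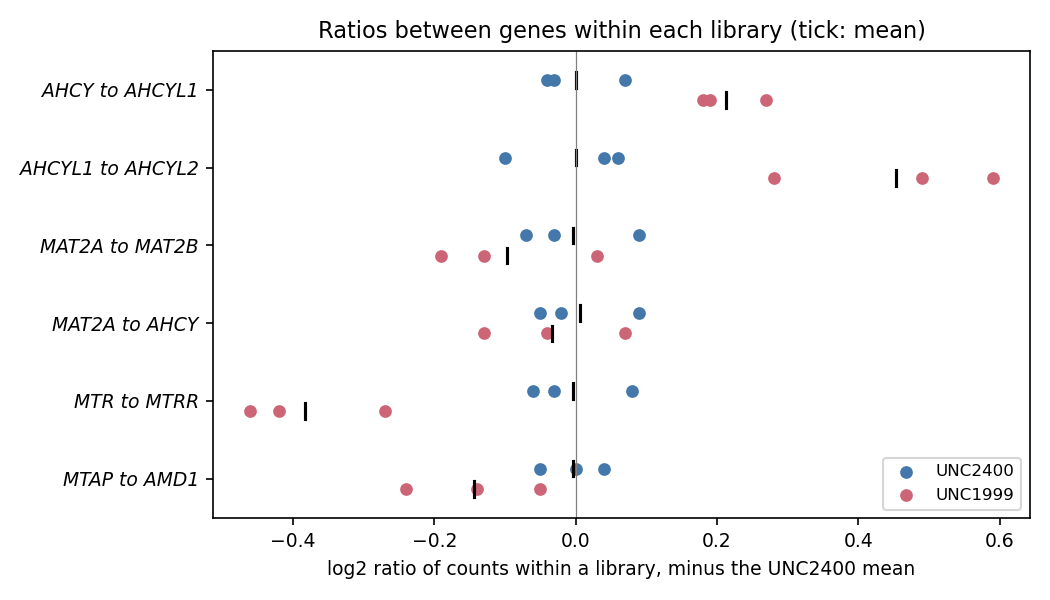
Log2 ratio of the counts of 2 genes within a library, minus the UNC2400 mean of that ratio (horizontal axis), for the 6 ratios tested; each point is 1 library and each tick a group mean. AHCY to AHCYL1 and AHCYL1 to AHCYL2 lie to the right in UNC1999, MTR to MTRR lies to the left, and both MAT2A ratios overlap.

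In the authors' deposited table the same 6 genes had an adjusted p-value under 0.05 and were lower, where 22.7% of its 20901 genes were. Its log2 fold changes included -0.79 for AHCYL2, -0.63 for MTR, -0.17 for MAT2A and -0.13 for AHCY, all in the authors' deposited table.

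Levels can be compared between genes only per length, here as CPM per kb of joined exons in GENCODE. On that scale AHCY (93.8 ± 2.37 in UNC2400, SD, n = 3) and MAT2A (91.2 ± 2.37) stood highest and overlapped, followed by AMD1 at 55.3 and AHCYL1 at 31.5. MAT2B followed at 14.5, MTRR at 9.92 and MTR at 7.52. AHCYL2, at 5.3, and MTAP, at 4.76, were the lowest. The libraries of each neighbouring pair other than AHCY and MAT2A lay apart. In UNC1999 the order changed at the lower end, where MTAP (4.03) lay above AHCYL2 (3.11). The level of MTAP depends on its joined exon length of 14.62 kb, which holds many isoforms.

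Fold changes across the whole table moved with the genomic span of a gene, measured from its first to its last base in GENCODE. Among 3231 tested genes under 10 kb the median log2 fold change was 0.20, with 9.16% called lower and 42.1% higher. Among 3002 genes over 100 kb it was -0.28, with 54.4% lower and 9.83% higher. AHCYL2 at 205.2 kb, MTAP at 135.1 kb and MTR at 108.7 kb belong to the longest class, and MAT2A at 6.1 kb to the shortest. AHCYL2 and MTR lay below the median of their class, MTAP just above it, and MAT2A, at -0.15, well below the median of genes of its size.

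With span, exon length and GC content entered as offsets in the edgeR fit, 8 of the 9 genes were called lower and none higher, where 22.2% of all tested genes were lower and 26.9% higher. AHCYL2 was then at -0.49 (adjusted p = 3.36e-05) and MTR at -0.35 (adjusted p = 4.93e-05), both smaller than without offsets. MAT2A went the other way, to -0.41 (adjusted p = 1.23e-05), and AHCYL1 barely moved, at -0.35. MAT2B at -0.20, AMD1 at -0.22 and AHCY at -0.13 also passed with these offsets (adjusted p = 0.00634, 0.00116 and 0.0445). MTAP no longer passed, with a 95% interval of -0.05 to 0.14. So the order of the genes by fold change depends on whether these offsets are used. Length and GC were entered together, and the part of each in these changes was not tested.

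**Figure D3:**
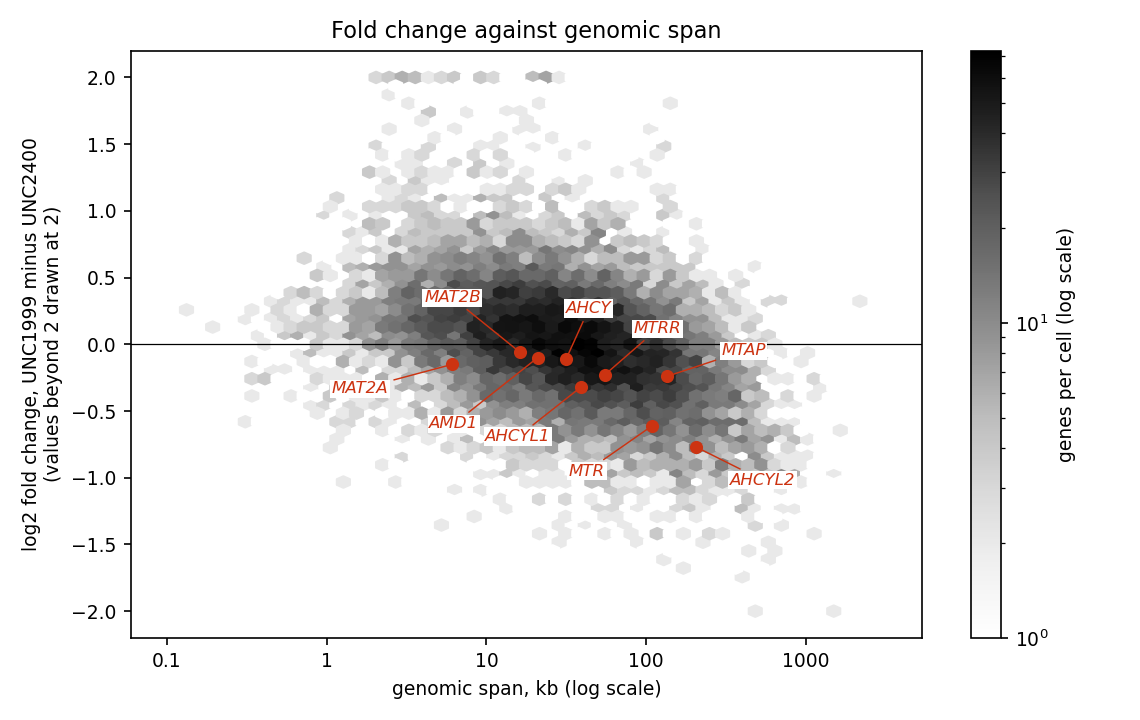
Log2 fold change (vertical axis, values beyond 2 drawn at 2) against genomic span in kb (horizontal axis, log scale) for tested genes with a span, as a density of genes per cell on a log grey scale, with the 9 genes as red points. The cloud tilts down to the right, from a median of 0.20 under 10 kb to -0.28 over 100 kb; AHCYL2, MTAP and MTR lie at the long end and MAT2A at the short end.

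**Figure D4:**
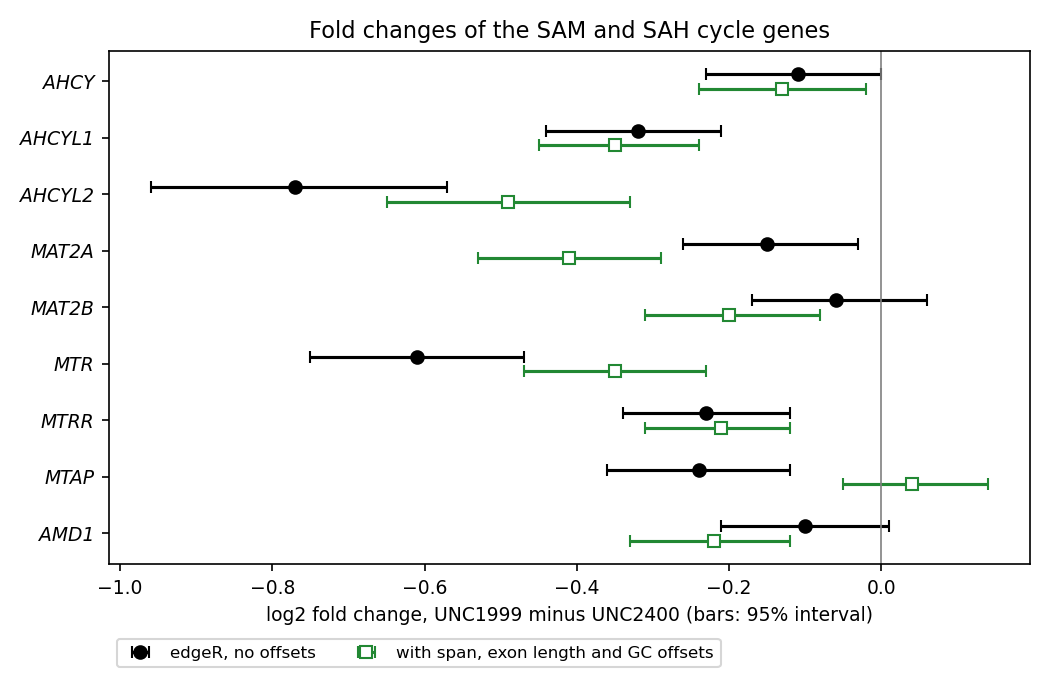
Log2 fold change (UNC1999 minus UNC2400, horizontal axis) with its 95% interval for each gene, from edgeR without offsets (filled circles) and with span, exon length and GC offsets (open squares). MAT2A moves from -0.15 to -0.41 and MTAP from -0.24 to 0.04, while AHCYL1 and MTRR stay nearly in place.

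Promoter windows from RefSeq (GRCh38.p14, from 250 bases before to 50 after a listed start) were found for 8 of the 9 genes. Those of the strongest falls, AHCYL2 and MTR, and of MAT2A, whose fall was larger with the length and GC offsets, are shown to set their start regions side by side. Capitals mark matches on either strand to the GC box GGGCGG, the CCAAT box CCAAT and the TATA box TATAAA. The first listed start is used where there are several, and which start these cells use is not measured here. The windows lie on the plus strand at chr7:129224780-129225079, chr1:236795031-236795330 and chr2:85538918-85539217 in that order.
AHCYL2: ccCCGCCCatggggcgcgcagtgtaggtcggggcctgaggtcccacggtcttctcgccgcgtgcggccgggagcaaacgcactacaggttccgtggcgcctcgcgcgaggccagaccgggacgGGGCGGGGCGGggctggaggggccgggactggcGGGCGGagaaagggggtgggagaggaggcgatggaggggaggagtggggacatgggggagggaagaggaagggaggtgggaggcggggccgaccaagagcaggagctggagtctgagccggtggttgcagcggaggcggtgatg
MTR: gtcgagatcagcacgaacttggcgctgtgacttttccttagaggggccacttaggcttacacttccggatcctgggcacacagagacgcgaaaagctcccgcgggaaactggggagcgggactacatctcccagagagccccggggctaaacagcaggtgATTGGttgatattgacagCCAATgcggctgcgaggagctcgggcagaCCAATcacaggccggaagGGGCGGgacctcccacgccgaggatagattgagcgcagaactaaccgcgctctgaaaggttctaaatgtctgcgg
MAT2A: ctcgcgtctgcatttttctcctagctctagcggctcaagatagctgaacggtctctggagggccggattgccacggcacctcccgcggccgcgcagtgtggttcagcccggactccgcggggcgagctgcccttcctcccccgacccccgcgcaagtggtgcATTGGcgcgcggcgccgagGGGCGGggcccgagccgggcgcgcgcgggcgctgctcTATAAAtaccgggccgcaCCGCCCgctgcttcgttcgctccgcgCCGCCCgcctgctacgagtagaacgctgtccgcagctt
The AHCYL2 window held 29 CG dinucleotides and 4 GC boxes, the MTR window 21 CG dinucleotides, 1 GC box and 3 CCAAT boxes, and the MAT2A window 43 CG dinucleotides, 3 GC boxes, 1 CCAAT box and 1 TATA box. All 3 were richer in CG than the median of 14 over 35116 windows. For AHCYL2 that held only at the first of its 6 listed starts. The windows of its other starts had 0 to 4 CG dinucleotides and no GC box. Of all windows 45% held a GC box, 34.6% a CCAAT box and 11.5% a TATA box, so these matches are common. The E-box CACGTG and the cAMP response element TGACGTCA, in 7.26% and 1.85% of all windows, had no match in these 3. These are letter matches and not measured binding.

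The surrounding pathways were covered by 9 lists of 114 genes, of which 106 were tested. Of these 106 genes 28 were higher, 26 lower and 52 not called, with a median log2 fold change of -0.02. By the same rule 26.8% of all tested genes were higher and 25.9% lower, with a median of 0.02. With the length and GC offsets 28 list genes were higher and 37 lower, beside 26.9% and 22.2% of all tested genes. The counts of the single lists below are to be read beside these shares, since calls in either direction are frequent. All p-values below are edgeR values adjusted over all tested genes. The list of betaine remethylation and transsulfuration holds the routes that use homocysteine beside MTR, and also neighbouring enzymes that do not use it. In this list 7 of 10 tested genes fell and none rose, with a median of -0.47. CBS, which commits homocysteine to cysteine synthesis, went from 355 to 235 CPM (-0.60 ± 0.06, adjusted p = 1.05e-06), and every UNC1999 library was below every UNC2400 library. ALDH7A1, which oxidises betaine aldehyde among other substrates, went from 189 to 106 CPM (-0.84 ± 0.05, adjusted p = 5.89e-09). SARDH, the mitochondrial sarcosine dehydrogenase, fell by 0.85 ± 0.15 (adjusted p = 1.46e-04) at a low level of 4.02 and 2.24 CPM. With the length and GC offsets 7 of the 10 were lower and 1 higher.

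In the folate cycle, which supplies the methyl group for MTR, 10 of 20 tested genes fell and 6 rose, with a median of -0.19 (11 and 5 with the offsets). ALDH1L2, the mitochondrial formyltetrahydrofolate dehydrogenase, showed the lowest ratio, from 32.2 to 14.1 CPM (-1.19 ± 0.07, adjusted p = 4.99e-09). MTHFD1, the trifunctional cytosolic folate enzyme, went from 343 to 199 CPM (-0.78 ± 0.08, adjusted p = 4.28e-07), with 232 CPM in UNC1999 replicate 1 against 173 and 192 CPM in the others. MTHFD1L, its mitochondrial relative, fell by 0.62 ± 0.08, and by 0.23 with offsets. Among the 6 that rose, MTHFD2 went from 197 to 238 CPM (0.27 ± 0.05, adjusted p = 3.46e-04), without overlap between the groups. MTFMT went from 15 to 20 CPM (0.41 ± 0.08, adjusted p = 2.15e-04). FOLR1 lay under 1 CPM in both groups, at 0.153 and 0.589 CPM. MTHFD2, MTFMT and FOLR1 are named here after their values were seen.

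Cobalamin uptake and processing, which serves MTR as cofactor, had 4 of 10 genes higher and 1 lower (median 0.04), and 4 higher and 3 lower with the offsets. MMACHC, which prepares cobalamin for both of its enzymes, rose from 10.1 to 15.1 CPM (0.59 ± 0.08, adjusted p = 1.29e-05). MMAB rose by 0.30 ± 0.07 and MMUT, the mitochondrial mutase, fell by 0.20 ± 0.06. MMACHC thus rose while MTR and MTRR fell, in each case without overlap between the groups.

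Polyamine genes, downstream of AMD1, had 5 of 14 higher and 1 lower (median 0.02), and with the offsets 5 were higher and 4 lower (median -0.03). ODC1, which makes putrescine, the acceptor of the group that AMD1 prepares, went from 370 to 552 CPM (0.58 ± 0.05, adjusted p = 1.33e-07). It was at 375, 376 and 358 CPM in UNC2400 and at 548, 546 and 563 CPM in UNC1999, far apart and tight within each group. SMOX and SAT1, which oxidise and acetylate polyamines, rose by 0.74 ± 0.11 (adjusted p = 3.21e-05) and 0.43 ± 0.06 (adjusted p = 2.45e-05). With offsets the rises were 0.37 for ODC1 and 0.15 for SAT1. The 1 gene called lower was SRM, spermidine synthase, from 144 to 127 CPM (-0.19 ± 0.05, adjusted p = 0.00815). SMS, spermine synthase, did not pass (-0.09 ± 0.06, adjusted p = 0.189). SRM and SMS are named after their values were seen. Methionine salvage after MTAP had 1 of 6 lower and none higher, and 2 lower with the offsets. GOT2, an aminotransferase of the malate-aspartate shuttle, fell by 0.22 ± 0.05. APIP at -0.18 ± 0.08 (adjusted p = 0.0761) and ADI1 at 0.15 ± 0.06 (adjusted p = 0.0511) did not pass. Both passed without UNC1999 replicate 1, at -0.29 (edgeR adjusted p = 0.00123) and 0.18 (adjusted p = 0.00862).

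Adenosine, the other product of AHCY, must be cleared for SAH splitting to proceed. Of 11 tested genes that handle it, 1 rose, 1 fell and 9 were not called, and with the offsets 2 rose and 3 fell. ADK, adenosine kinase, was at 30.8, 36 and 33.5 CPM in UNC2400 and at 17.9, 15.6 and 16 CPM in UNC1999, with no overlap. It fell by 1.02 ± 0.08 (adjusted p = 2.12e-08), and by 0.45 with offsets. ADA, adenosine deaminase, rose by 0.71 ± 0.14 (adjusted p = 4.98e-04) from 2.89 to 4.73 CPM. SLC29A3, a nucleoside transporter, was at 0.22 ± 0.09 (adjusted p = 0.0561). It passed in 4 of 14 alternatives, among them the offsets, at 0.36 (adjusted p = 0.00312), and without UNC1999 replicate 1. ADA2, the other adenosine deaminase of the list, named after its values were seen, was at 92.4 and 87.6 CPM and did not pass (-0.08, adjusted p = 0.275).

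Genes for SAM supply and sensing had 2 of 7 higher and none lower (median 0.13), and 4 higher and none lower with the offsets (median 0.25). SLC3A2, the heavy chain of the transporter that brings in methionine and other large amino acids, went from 201 to 382 CPM (0.92 ± 0.09, adjusted p = 2.35e-07), with 309 CPM in UNC1999 replicate 1 and 416 and 419 CPM in the others. SLC7A5, the light chain of that transporter, was at 263 and 250 CPM and did not pass (-0.08 ± 0.05, adjusted p = 0.232). The transporter gene SLC43A2 did not pass either (-0.07 ± 0.09, adjusted p = 0.54). SLC7A5 and SLC43A2 are named after their values were seen. METTL16, which methylates MAT2A RNA and is known to control its splicing and stability, was at 81.2 and 88.7 CPM (0.13 ± 0.05, adjusted p = 0.0411), and its call was lost in 8 of 14 alternatives, among them leaving out any UNC2400 library or UNC1999 replicate 1 or 3. With the offsets it was at 0.31 and passed (adjusted p = 3.00e-05). MAT1A, the liver form of the synthetase, stayed under 1 CPM in both means and did not pass (0.54 ± 0.30, adjusted p = 0.136).

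Among enzymes that consume SAM, small-molecule methyltransferases had 3 of 9 higher and 1 lower, and arginine and RNA methyltransferases 7 of 19 higher and 4 lower. With the offsets the counts were 2 higher and 1 lower, and 5 higher and 6 lower, so the balance of the second list turned. HNMT, which methylates histamine, rose by 0.60 ± 0.18 (adjusted p = 0.0116), a call lost without UNC2400 replicate 3. ICMT, which methylates prenylated proteins, was at 0.14 ± 0.05 (adjusted p = 0.0225) and lost its call in 9 of 14 alternatives, among them the offsets, where it was at -0.00 (adjusted p = 1), and leaving out any UNC2400 library or UNC1999 replicate 1 or 3. CARM1, an arginine methyltransferase, went from 238 to 169 CPM (-0.49 ± 0.06, adjusted p = 2.84e-06). METTL5, which methylates ribosomal RNA, rose by 0.51 ± 0.06, and CMTR2, which methylates the mRNA cap region, by 0.70 ± 0.08 (adjusted p = 3.13e-06).

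**Figure D5:**
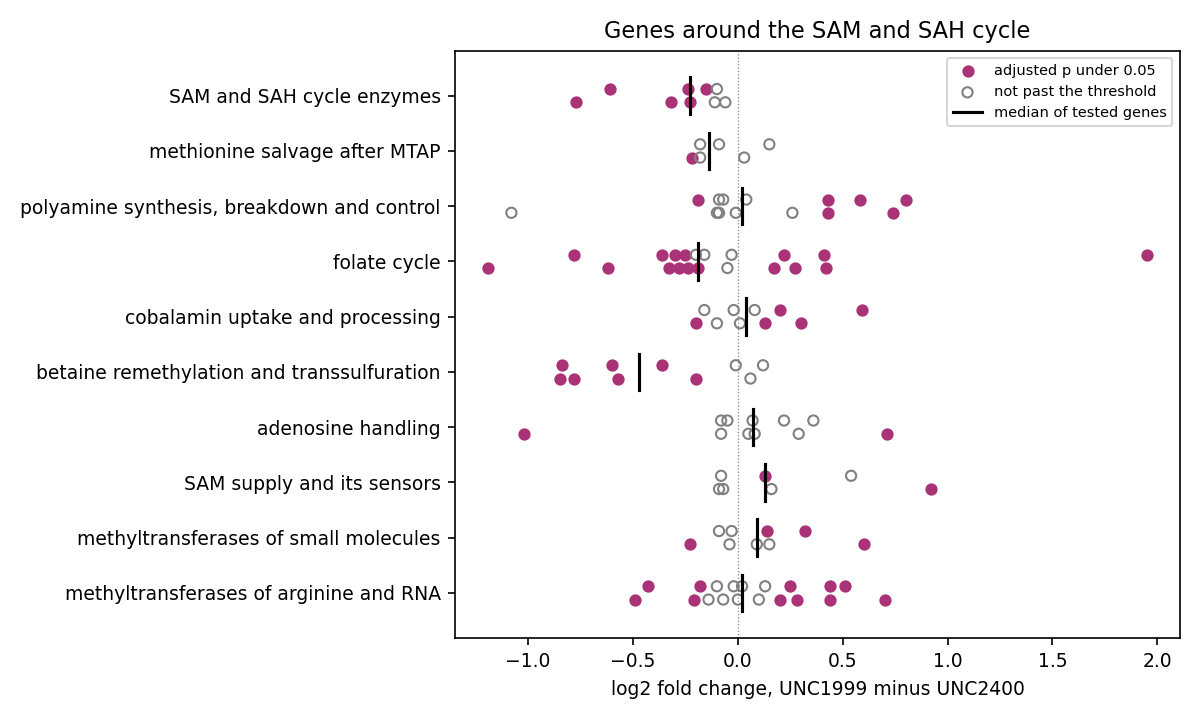
Log2 fold change (UNC1999 minus UNC2400, horizontal axis) of each tested gene in the 9 SAM and SAH cycle genes and the 9 surrounding lists, with filled points past an edgeR adjusted p of 0.05, open points not past it and a bar at the median. The transsulfuration list has its median at -0.47 and no gene called higher, while the polyamine and cobalamin lists spread to both sides.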

How the data were processed

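RNA-seq counts of 6 libraries were used; sample titles gave the groups and replicate numbers. Whether replicates are separate cultures is not stated in the labels; p-values therefore cover only library-to-library spread, possibly technical. The deposited counts are whole numbers per gene name, not normalized; the submitters' processing notes name Trim Galore 0.4.0, TopHat2 2.0.13, featureCounts, Subread 1.5.0 and hg19. The authors' deposited table of p-values, scores and log2 fold changes has limma's column names per the file headers. The authors also deposited log2 values marked as batch-corrected, which were not used here; the batch is not named.

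Counts were tested with edgeR 4.0.16 under R 4.3.3 (default low-count filter, TMM factors, two-sided quasi-likelihood F test on group alone), checked on simulated data. Intervals are 95%. Alternatives were RLE and upper-quartile factors, DESeq2 1.42.0, limma-voom (limma 3.58.1), no filter, a replicate block, loess offsets (span 0.3) for length and GC, which 84.3% of tested genes had, and each library left out. Ratios used exact permutation tests (scipy 1.17.1). Spans, exons, GC and overlaps come from GENCODE 29; promoter sequences from RefSeq.

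The genes and lists were chosen with earlier results of these data known. Named genes were the 9, and in each surrounding list the 3 tested genes with the smallest p; for AHCY and MAT2A also the 3 genes with the nearest profile; and EZH2 and marker checks. A gene that this rule names is not reported here. Some list genes stand in the table under older symbols (MMUT as MUT, CMTR2 as FTSJD1).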

Additional observations from a re-analysis of the deposited data

How the results depend on the processing

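Under the 14 alternatives AHCYL1, AHCYL2, MTR and MTRR kept their direction and their side of the threshold. MTAP turned to 0.04 with the length and GC offsets, and to 0.04 with those offsets and the replicate block. The MAT2A to AHCY ratio turned to 0.01 without UNC2400 replicate 1 and to 0.01 without UNC1999 replicate 3, in a leave-one-out range of -0.09 to 0.01; the cause was not tested. The MTAP to AMD1 ratio turned to 0.27 as a difference of fold changes with the offsets, an alternative chosen after seeing the data. Leaving out each library gave 7747 to 10076 genes called against 9268, 5 to 8 of the 9 cycle genes against 6, and 41 to 64 list genes against 54. The count of list genes called lower went from 26 to 39 with offsets and the block. Replicate numbers were not taken as pairs in the main fit. Same-number correlations of deviations were 0.024, 0.084 and 0.124, and those between different numbers ran from -0.136 to 0.062. UNC2400 replicates 2 and 3 correlated best with their own number, and UNC2400 replicate 1 with UNC1999 replicate 2. These small values do not settle whether the numbers mark pairs. With the replicate block 9562 genes, 6 cycle genes and 57 list genes were called. The median log2 fold change of all tested genes stayed between -0.00722 and 0.0329. Every cycle gene had at least 634 counts in each library.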

Other observations

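The genes with profiles nearest to AHCY over the 6 libraries, among 6125 genes whose mean log2 CPM was 5 or more, were CEP57, TMA16 and CDC123. Their root-mean-square differences from AHCY were 0.00885, 0.0107 and 0.0128 on the log2 scale, beside 0.072 for the variation of AHCY itself. For MAT2A the nearest were HCG18, PCMTD2 and TMX3, at 0.0186, 0.0188 and 0.0197 beside 0.0894 for MAT2A. With so many genes compared over 6 libraries, close profiles are easily found.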
